A study of Mus musculus with 7 samples.

Results

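Aminoacyl-tRNA synthetases are the enzymes that load each amino acid onto its transfer RNA, and their messages were followed here in the inguinal white fat of mice with and without TM4SF5, a membrane protein of the L6 family. Members were found by symbol after Entrez identifiers had been matched to a RefSeq gene table of the GRCm38.p6 assembly. All protein-coding synthetase genes were taken, 38 of the 29517 genes in the table. The cytosolic class held 21 genes, named by a one-letter amino acid code followed by ars or ars1, with Eprs, Farsa, Farsb and the threonyl paralog Tarsl2. The mitochondrial class held the 17 genes named by the code followed by ars2. All 38 were among the 19185 genes with enough counts to be tested, so no member was lost to the filter on low counts.

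The tissue was inguinal white adipose tissue, a subcutaneous depot at the groin that surrounds a lymph node and borders skeletal muscle. The wild-type (WT) group was 4 samples from untreated C57BL/6 mice and the knockout (KO) group 3 samples from untreated C57BL/6 mice labelled TM4SF5-/-. All ate standard chow. The labels give no sex, age, litter or batch, and do not say which part of the gene was deleted or whether the loss was limited to a tissue. The design text counts 3 replicates in each condition, whereas 4 samples are labelled WT, and all 7 libraries were used.

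Most synthetases recognise a single amino acid and the transfer RNAs that belong to it, whereas Eprs serves both glutamate and proline. Several synthetases proofread the product. Mammalian cells keep separate enzyme sets for cytosolic and for mitochondrial protein synthesis, and nuclear genes encode both. The mitochondrial set is imported and charges the transfer RNAs written in mitochondrial DNA, which serve the translation of subunits of oxidative phosphorylation only. A few genes bridge the sets. Gars and Kars each supply both compartments from one gene, and mitochondrial glutaminyl-tRNA is made from glutamate by the GatCAB amidotransferase, so that no mitochondrial glutaminyl enzyme is needed. Fat cells carry few mitochondria in white depots and many in brown or beige depots.

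Library totals were 55717495 to 60241436 counts in WT and 49775077 to 50704542 in KO. For Tm4sf5 itself the WT libraries held 33, 45, 47 and 20 counts against 7, 6 and 17 for the KO ones, so it was scarce in this tissue and not at 0 in the KO libraries. On the CPM scale defined below KO 3, at 0.35, was above WT 4, at 0.32, so the groups overlapped, and libraries are named by their labels. Messages encoded by mitochondrial DNA took 8.01% to 11.9% of all counts in WT and 15.8% to 18.4% in KO. Libraries were therefore scaled by edgeR's TMM factors, and levels below are in CPM, the count relative to the scaled library size. Across all genes, edgeR's quasi-likelihood test called 0 genes (0%) at a Benjamini-Hochberg adjusted p of 0.05. It called 4187 genes (21.8%) with an unadjusted p under 0.05, while DESeq2 called 2120 (11.1%) and limma-voom 1 after adjustment.

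With TMM scaling most mitochondrial synthetases stood higher in KO fat and the cytosolic class had no common direction, whereas with scaling by total counts alone the class medians were -0.017 and -0.24 and that of all genes -0.35. With TMM, 16 of the 17 mitochondrial genes had a positive log2 fold change (KO over WT), with a median of 0.31 and a range from -0.21 to 2.56. Of the 21 cytosolic genes 12 were positive, with a median of 0.09 and a range from -0.47 to 0.45. The median over all 19185 genes was -0.04. At an unadjusted p under 0.05 edgeR placed 8 mitochondrial genes (47.1%) higher and 0 lower, against a background of 12.3% of all genes higher and 9.51% lower. It placed 1 cytosolic gene (4.76%) higher and 0 lower. By edgeR no member of either class passed the adjusted threshold, and DESeq2 gave an adjusted p under 0.05 to 3 mitochondrial genes. The mitochondrial count was 4 without KO 1, 5 without WT 1 and 5 without WT 3. The cytosolic count was 0 without WT 3, WT 4, KO 1 or KO 3 and 2 without KO 2. Total-count scaling placed 1 mitochondrial gene, Lars2, higher and 0 cytosolic genes higher, with 8 cytosolic genes lower. Under that scaling 5565 of the 19185 genes were called in either direction. The log2 fold change was then positive for 6 of the 17 mitochondrial and 2 of the 21 cytosolic genes. Without Lars2, whose value is treated apart below, the mitochondrial median was 0.24 and 7 of 16 genes were called higher.

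**Figure D1:**
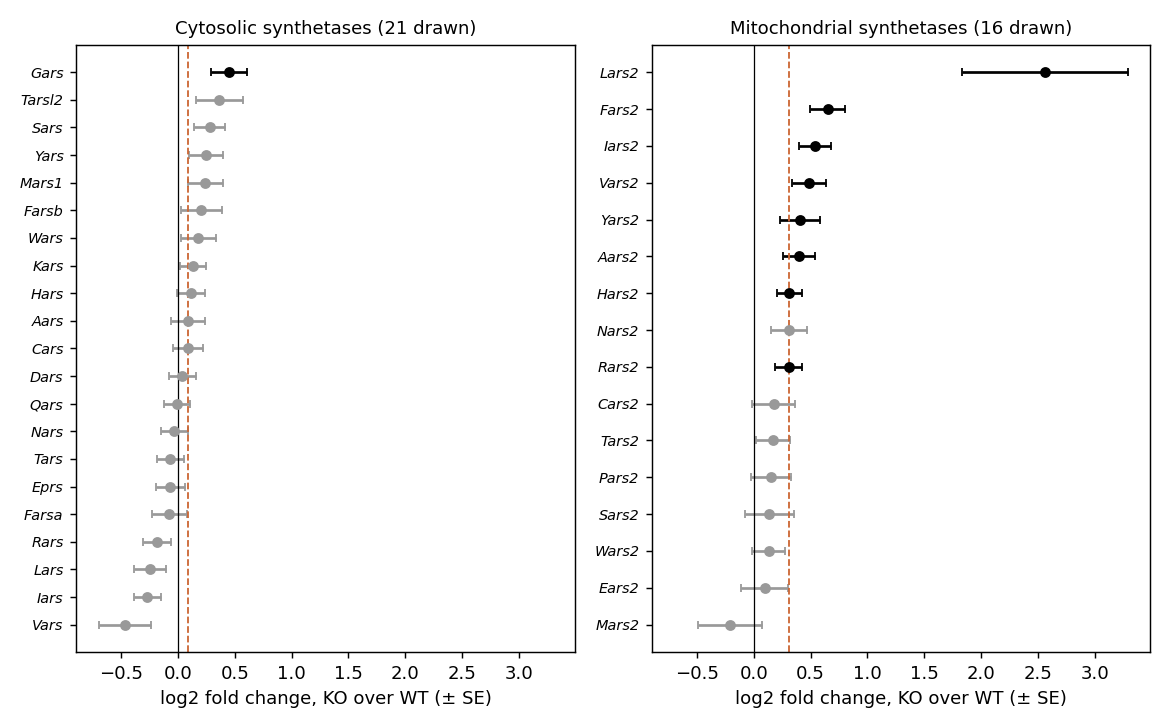
Log2 fold change of each synthetase, KO over WT, from edgeR with TMM scaling; the points are the estimates, the bars ± 1 standard error, black points have an unadjusted p under 0.05 and the dashed line is the median of the whole class. Of the 16 mitochondrial genes drawn, Mars2 lies to the left of 0 and the others to the right, while the cytosolic genes spread to both sides.

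The gap between the classes was also read within each library, where scaling cancels. For each gene the log2 of its level over the WT mean was taken, and the cytosolic class median was subtracted from the mitochondrial one. This difference was -0.01, -0.15, -0.02 and 0.13 in WT 1 to WT 4, and 0.25, 0.23 and 0.39 in KO 1 to KO 3. The KO libraries all lay above the highest WT library, and without Lars2 they lay at 0.23, 0.22 and 0.35. The summed level of the 16 mitochondrial genes other than Lars2 was 388.3 to 411.6 CPM in WT and 459.8 to 555.8 in KO. The summed cytosolic level was 1200.2 to 1399.9 CPM in WT and 1243.1 to 1426.2 in KO, so that the groups overlapped. The difference between the median fold changes of the classes was 0.22 with TMM and 0.22 with total counts, and 0.13 without WT 2, which had the highest cytosolic median of the WT group.

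**Figure D2:**
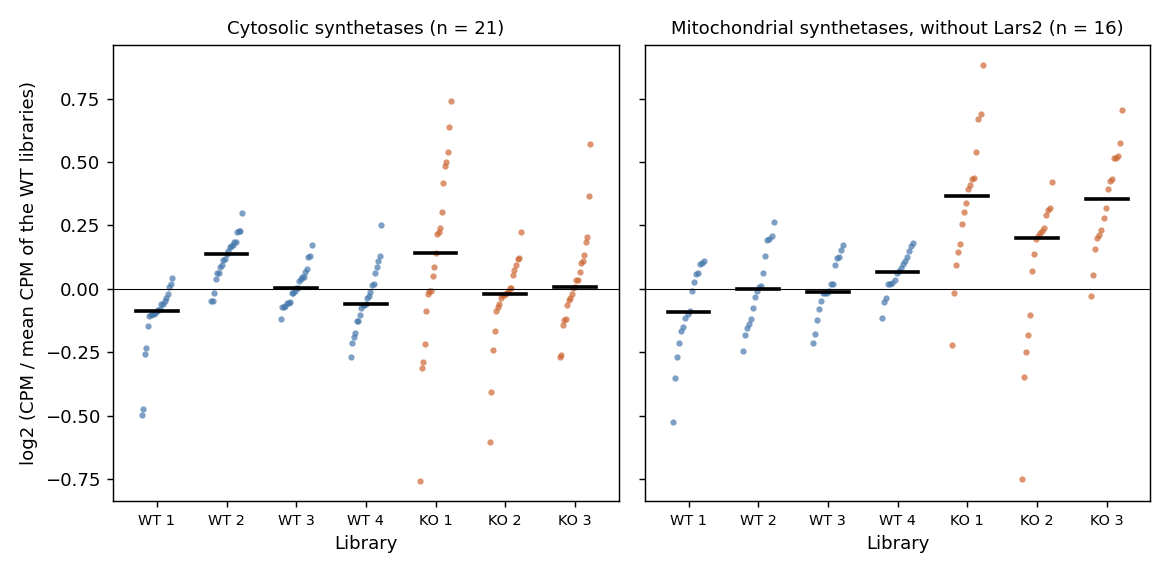
Log2 of each synthetase's CPM over its WT mean in each library; dots are genes sorted by value within a library, and bars are medians. The mitochondrial medians, drawn without Lars2, are higher in each KO library (0.20 to 0.37) than in any WT library, whereas the cytosolic medians of KO 2 and KO 3 lie inside the WT range.

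Marker genes of several cell types also differed in level between the groups. The counts called below stand beside 12.3% of all genes called higher and 9.51% called lower in the main fit. Adipocyte markers summed to 10662 to 15403 CPM in WT and 17103 to 30178 in KO, and 5 of 9 were called higher (2 of 9 without KO 1). Brown and beige fat markers summed to 162.8 to 976.5 CPM in WT and 580.5 to 2403 in KO, and 3 of 7 were called higher (5 of 7 without WT 4). Ucp1, the uncoupling protein of heat-making fat, was not among the 3 and overlapped, with 47.8 to 578.8 CPM in WT and 199.6 to 1341 in KO. Macrophage markers summed to 1431 to 2227 CPM in WT and 512.7 to 780.3 in KO, and all 10 were called lower. Skeletal muscle markers summed to 3.65 to 1193 CPM in WT, with WT 2 and WT 4 high, and to 14.96 to 139.0 in KO. B and T cell markers summed to 386.5 to 1356 CPM in WT and 320.8 to 893.2 in KO, and 0 of 9 were called, whereas 5 were called lower without KO 3 and 2 without WT 1. Plasma cell markers summed to 219.3 to 303.7 CPM in WT and 140.4 to 286.3 in KO, with 4 of 6 called lower. In these bulk samples a change in the number of cells of a type and a change in RNA per cell cannot be told apart, and the part of cell makeup in the synthetase values was not tested. With WT 2 and WT 4 left out together, an alternative chosen after the data were seen, 4 mitochondrial and 0 cytosolic genes were called higher, and the class medians were 0.30 and 0.08. In that setting the muscle markers reversed. All 8 were positive and 7 were called higher, with a median log2 difference of 3.22, against -2.65 and 0 called with all libraries.

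Among the mitochondrial enzymes, Fars2, which charges phenylalanine, had the smallest p. Its level was 23.3, 22.2, 22.2 and 21.8 CPM in WT 1 to WT 4 and 41.2, 27.8 and 36.5 CPM in KO 1 to KO 3. The WT libraries were nearly equal and each KO library stood above them. The means were 22.4 ± 0.659 (SD, n = 4) and 35.2 ± 6.84 CPM (SD, n = 3), a 1.57-fold difference (log2 0.65, SE 0.15, edgeR unadjusted p = 0.00271, adjusted p = 0.0967; DESeq2 adjusted p = 0.00937).

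Iars2 charges isoleucine and had the highest level per length of the class in WT fat. It was measured at 120.2, 94.7, 119.7 and 113.8 CPM in WT and 178.4, 150.2 and 160.6 CPM in KO. WT 2 was the lowest library and the groups did not overlap. The fold was 1.45 (log2 0.54, SE 0.14, edgeR adjusted p = 0.104; DESeq2 adjusted p = 0.00983). Annotated neighbours overlap Iars2, among them Rab3gap2 and the microRNA genes Mir194-1 and Mir215, and how reads in the overlap were assigned is not given in the sources used here.

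Vars2, the valine enzyme, and Aars2, the alanine enzyme, had smaller differences. Vars2 stood at 30.0, 24.5, 27.5 and 29.2 CPM in WT and 44.8, 32.4 and 39.8 CPM in KO (log2 difference 0.49, SE 0.15, edgeR adjusted p = 0.130). Aars2 stood at 19.2, 18.7, 22.4 and 22.0 CPM in WT and 29.9, 23.8 and 27.6 CPM in KO (log2 difference 0.40, SE 0.14, edgeR adjusted p = 0.163). Neither gene's groups overlapped, and for both KO 1 was the highest library and KO 2 the lowest of the KO group.

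Hars2, the histidine enzyme, was at 36.2, 35.8, 33.6 and 36.4 CPM in WT and 47.2, 43.4 and 41.7 CPM in KO (log2 difference 0.31, SE 0.11, edgeR adjusted p = 0.167). Its groups did not overlap under TMM, but its difference was -0.01 under total-count scaling. Hars2 and its cytosolic counterpart Hars are neighbours on chromosome 18 whose annotated ends overlap by a few bases. Rars2, the arginine enzyme, ranged from 22.1 to 22.9 CPM in WT and from 25.8 to 30.6 in KO (log2 difference 0.31, SE 0.12, edgeR unadjusted p = 0.0306). Yars2, the tyrosine enzyme, ranged from 8.64 to 11.9 CPM in WT and from 12.3 to 15.5 in KO (log2 difference 0.41, SE 0.18, edgeR unadjusted p = 0.0478). With Lars2 these were the 8 mitochondrial genes called at an unadjusted p of 0.05, and in each of them every KO library was above every WT library. The call and this separation come from the same values, so the separation is not added support. Across all genes, called or not, 11.4% had KO libraries wholly above WT and 8.92% wholly below.

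The 9 remaining mitochondrial genes had overlapping groups. Nars2, for asparagine, came nearest to the threshold with a log2 difference of 0.31 (edgeR unadjusted p = 0.0865). Tars2, Cars2, Wars2, Sars2 and Ears2, for threonine, cysteine, tryptophan, serine and glutamate, had log2 differences from 0.10 to 0.18. Pars2, the proline enzyme, was low at 5.45, 6.01, 7.03 and 6.82 CPM in WT and 7.55, 6.96 and 6.57 CPM in KO. Mars2, which charges methionine, was the exception in direction and had 5.63, 8.46, 9.15 and 9.21 CPM in WT and 6.95, 4.82 and 9.31 CPM in KO. WT 1 and KO 2 were its lowest libraries, the groups overlapped, and its log2 difference was -0.21 (SE 0.28, edgeR unadjusted p = 0.478).

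Lars2, the mitochondrial leucine enzyme, had the largest fold change of the 38 and a single library, KO 1, set much of its size. Its level was 52.8, 53.6, 56.3 and 68.4 CPM in WT and 825.8, 118.2 and 80.5 CPM in KO. KO 1 was far above the rest, and KO 2 and KO 3 were above every WT library by a smaller margin. The fold was 5.91 (log2 2.56, SE 0.73, edgeR unadjusted p = 0.00769, adjusted p = 0.117; DESeq2 adjusted p = 0.00428). Without KO 1 the log2 difference was 0.78 (SE 0.19, edgeR unadjusted p = 0.0046, adjusted p = 0.303).

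Lars2 can share reads with ribosomal RNA in mouse libraries, so it was set beside the ribosomal RNA rows of the table. Lars2 received 3244, 3545, 3638 and 4245 raw counts in the WT libraries against 32804, 5372 and 3872 in the KO ones. The mitochondrial large ribosomal RNA, mt-Rnr2, received 47092, 36723, 17232 and 62649 in the WT libraries against 153528, 53297 and 68107. Both were highest in KO 1, but their order differed elsewhere, and Lars2 as a percentage of mt-Rnr2 ran from 6.78% to 21.1% in WT and was 21.4%, 10.1% and 5.69% in KO.

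Rn18s-rs5 is a row annotated as an 18S ribosomal RNA related sequence. Its raw counts were 34947, 38981, 35971 and 52262 for the WT libraries against 228513, 68380 and 33754 for the KO ones. Its order of KO libraries was that of Lars2, with KO 1 highest and KO 3 lowest. Lars2 as a percentage of Rn18s-rs5 was 9.28%, 9.09%, 10.1% and 8.12% in WT and 14.4%, 7.86% and 11.5% in KO, a narrower range than that of its raw counts. Per 1000 counts of mitochondrially encoded messages, Lars2 had 0.571, 0.773, 0.754 and 0.642 in WT against 3.59, 0.662 and 0.486 in KO.

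Genes with a mean level of at least 10 CPM, 10098 in all, were ranked by the ratio of KO 1 to the next highest library. The first was Gm15564 with 9.28, Lars2 followed with 6.98 and then Rn18s-rs5 with 3.82. Gm15564 had raw counts of 219, 396, 0 and 564 in WT against 6790, 837 and 411 in KO. The coding transcripts of all 38 members, from GENCODE M21, were aligned with blastn to the transcripts of mt-Rnr1, mt-Rnr2, the gene at the Rn18s-rs5 position and Gm15564. No member matched mt-Rnr1, mt-Rnr2 or the 18S-like gene. The large cytosolic ribosomal RNA and the ribosomal RNA precursor were not among the sequences compared, so a match of any member to them was not tested. Only Lars2 matched Gm15564, over 72 bases with 1 mismatch (98.6% identity). The shared bases lie at chr9:123462048-123462119 on the plus strand of GRCm38, in the 3′ UTR of Lars2, from position 3278 to 3349 of a transcript of 3894 bases. Whether reads from ribosomal RNA entered the Lars2 count, and how many, was not tested.

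**Figure D3:**
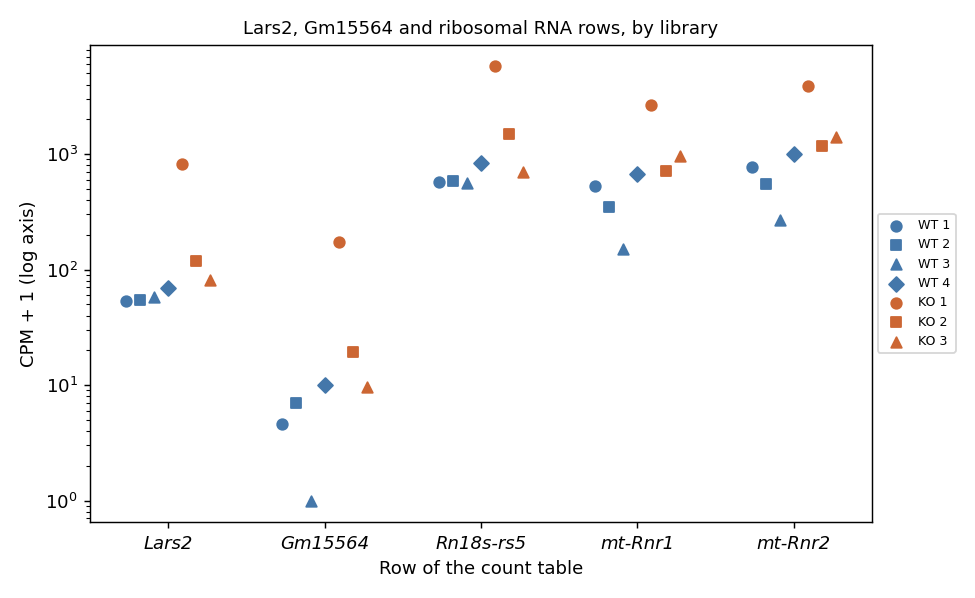
Levels in CPM plus 1, on a log axis, of Lars2, Gm15564 and 3 ribosomal RNA rows, one point per library. All 5 are highest in KO 1, and Lars2 in the other 6 libraries lies between 52.8 and 118.2 CPM.

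In the cytosolic class Gars was the sole gene called at an unadjusted p of 0.05. It charges glycine in both compartments and had the highest level per length of all 38 in WT fat. It stood at 98.2, 103.3, 95.7 and 90.2 CPM in WT and 150.7, 102.1 and 144.1 CPM in KO. KO 1 and KO 3 were above WT, while KO 2 lay inside the WT range. The fold was 1.37 (log2 0.45, SE 0.16, edgeR unadjusted p = 0.0222, adjusted p = 0.166), and the edgeR call was lost without KO 1 (log2 0.35, unadjusted p = 0.0897) and without WT 3, WT 4 or KO 3. Kars, the lysine enzyme of both compartments, had a log2 difference of 0.13. Without Gars and Kars, the 19 remaining cytosolic genes had a median of 0.04, and 0 were called.

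Sars, the serine enzyme, and Iars, the isoleucine enzyme, had groups that did not overlap, in opposite directions. Sars was at 76.5, 87.3, 79.1 and 85.8 CPM in WT and 115.1, 89.2 and 94.8 CPM in KO (log2 difference 0.28, SE 0.13, edgeR unadjusted p = 0.0700). Iars was at 47.5, 52.3, 51.9 and 51.6 CPM in WT and 41.6, 38.3 and 46.7 CPM in KO (log2 difference -0.27, SE 0.12, edgeR unadjusted p = 0.0578). Under total-count scaling Sars turned to -0.05 and Iars stood at -0.58.

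Vars, for valine, and Lars, for leucine, leaned lower with overlapping groups. Vars was at 83.4, 133.8, 113.5 and 140.1 CPM in WT and 69.7, 77.4 and 108.5 CPM in KO, with a log2 difference of -0.47 (SE 0.23, edgeR unadjusted p = 0.0749). Lars was at 44.5, 62.4, 55.0 and 50.9 CPM in WT and 42.9, 47.4 and 44.2 CPM in KO, with a log2 difference of -0.25 (SE 0.14, edgeR unadjusted p = 0.123). For both genes WT 1 was the lowest WT library and KO 1 the lowest of all. Tarsl2, a threonyl paralog and the cytosolic member with the lowest level per length, was at 8.45, 11.6, 9.80 and 9.84 CPM in WT and 16.6, 11.6 and 10.2 CPM in KO (log2 difference 0.36, edgeR unadjusted p = 0.120).

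The other cytosolic genes had log2 differences between -0.18 and 0.24 and overlapping groups. Several synthetases, among them Eprs, Iars, Lars, Mars1, Qars, Rars, Kars and Dars, are known to sit together in the multisynthetase complex, and their differences were -0.07, -0.27, -0.25, 0.24, -0.01, -0.18, 0.13 and 0.04 in that order. Its scaffold proteins Aimp1, Aimp2 and Eef1e1 had a median of -0.16, and 0 of 3 were called by edgeR at an unadjusted p of 0.05. Farsa and Farsb encode the subunits of the cytosolic phenylalanine enzyme and had -0.08 and 0.20. Nars, the asparagine enzyme, was among the most even members, with 91.6, 107.0, 95.7 and 87.5 CPM in WT and 94.9, 94.1 and 91.4 CPM in KO. Cars, the cysteine enzyme, had 28.0, 31.8, 29.5 and 25.4 CPM in WT and 33.9, 28.2 and 29.4 CPM in KO. Wars, the tryptophan enzyme, is a textbook interferon target and had a log2 difference of 0.18 (edgeR unadjusted p = 0.283). Of 12 other interferon response genes 7 were called lower, beside 9.51% of all genes, with a list median of -0.72.

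Many cytosolic synthetase genes are known targets of ATF4, the transcription factor of the amino acid response, which binds with C/EBP partners. RefSeq promoters (250 bases before to 50 after the start site, GRCm38.p6) were found for 14 of 21 cytosolic and 14 of 17 mitochondrial genes. The 8-letter element TGATGNAA, read on both strands, occurred in 5 of the 14 cytosolic promoters (35.7%), in 0 of the 14 mitochondrial ones and in 4.13% of 17492 protein-coding promoters. The match nearest the start site of each of the 5 is shown with the element in capitals and 10 bases on each side. They are written 5′ to 3′ in the direction of the gene, where the reverse complement of the element begins with TT.

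Yars, chr4:129189896-129189923, plus strand: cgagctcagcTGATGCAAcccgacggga
Gars, chr6:55037961-55037988, plus strand: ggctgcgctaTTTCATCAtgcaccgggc
Aars, chr8:111033841-111033868, plus strand: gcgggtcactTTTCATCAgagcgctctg
Iars, chr13:49682127-49682154, plus strand: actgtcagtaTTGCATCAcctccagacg
Tars, chr15:11399656-11399683, minus strand: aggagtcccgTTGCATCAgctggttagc

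These 5 genes did not share a direction in KO fat. Their log2 differences were 0.45 for Gars, 0.24 for Yars, 0.09 for Aars, -0.07 for Tars and -0.27 for Iars. A match is a description of the letters and not of binding. Of 16 other genes of the amino acid response, 3 (18.8%) were called higher and 1 lower at an unadjusted p of 0.05, with a median of 0.11 (-0.20 under total-count scaling). Over all genes 12.3% were called higher and 9.51% lower, so counts of this size are near the background. The counts for the list were 5 and 2 without WT 4, with a median of -0.0081, 4 and 3 without KO 3, and 2 and 1 without KO 1, with a median of 0.05. Asparagine synthetase, Asns, was at 35.9 to 52.5 CPM in WT and 54.9 to 99.3 in KO (log2 difference 0.88), and Psph, the last enzyme of serine synthesis, had a log2 difference of 0.62. Cebpb had 0.83, while the amino acid transporter Slc7a5 had -1.01 and Atf4 itself 0.03. Other elements were found in both classes. The NRF1 core GCGCANGC was in 5 of 14 promoters of each class (14.8% of all), the ETS core CCGGAAG in 5 cytosolic and 4 mitochondrial promoters (12.9% of all), and the E-box CACGTG in 4 and 1 (8.91% of all).

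For 17 amino acid pairings a mitochondrial enzyme could be set against the cytosolic one in the same library, Eprs serving as partner for both Ears2 and Pars2 and Farsa for Fars2. In 14 of the 17 the mitochondrial log2 fold change was above the cytosolic one, and the median difference was 0.22. In 5 the ratio of mitochondrial to cytosolic counts was higher in every KO library than in any WT library, and in 0 it was lower in every one. The 5 were the pairs for phenylalanine, isoleucine, leucine, arginine and valine. The phenylalanine separation holds against Farsa only. Against Farsb, the other subunit, the groups overlap. WT 1 had 23.3 CPM of Fars2 to 31.1 of Farsb, whereas KO 2 had 27.8 to 46.2. Among single genes 11.4% were wholly higher and 8.92% wholly lower in KO. The share among ratios of other gene pairs was not computed.

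The isoleucine ratio Iars2 to Iars was 2.53, 1.81, 2.31 and 2.21 in WT and 4.29, 3.92 and 3.44 in KO, from a mean of 2.21 ± 0.300 (SD, n = 4) to 3.88 ± 0.428 (SD, n = 3). Here the mitochondrial gene was higher and the cytosolic one lower. The phenylalanine ratio Fars2 to Farsa was 0.878, 0.635, 0.845 and 0.837 in WT and 1.46, 1.15 and 1.28 in KO. The arginine ratio Rars2 to Rars ranged from 0.495 to 0.604 in WT and from 0.685 to 0.896 in KO. In both the KO 2 library was the nearest to WT. The valine ratio Vars2 to Vars was 0.360, 0.183, 0.242 and 0.208 in WT and 0.644, 0.419 and 0.367 in KO, where WT 1 came close to KO 3. The leucine ratio Lars2 to Lars was 0.859 to 1.34 in WT and 19.3, 2.49 and 1.82 in KO, with KO 1 set by the Lars2 count described above.

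Exact two-sided permutation tests over the 35 ways to divide the libraries gave p = 0.0286, the smallest they can give, for phenylalanine, isoleucine, leucine and arginine, and p = 0.0571 for valine. With Benjamini-Hochberg adjustment for the 17 ratios compared, the smallest of these exact p-values became 0.121, so none passed 0.05. With 35 divisions no single ratio could have passed alone, however large its difference, so no conclusion is drawn from this. An exact p of 0.0286 also largely restates the separation by which the pairs were listed. The exceptions in direction were methionine, serine and tryptophan. The Mars2 to Mars1 ratio was 0.106, 0.159, 0.167 and 0.155 in WT and 0.0866, 0.0803 and 0.169 in KO, with overlap.

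**Figure D4:**
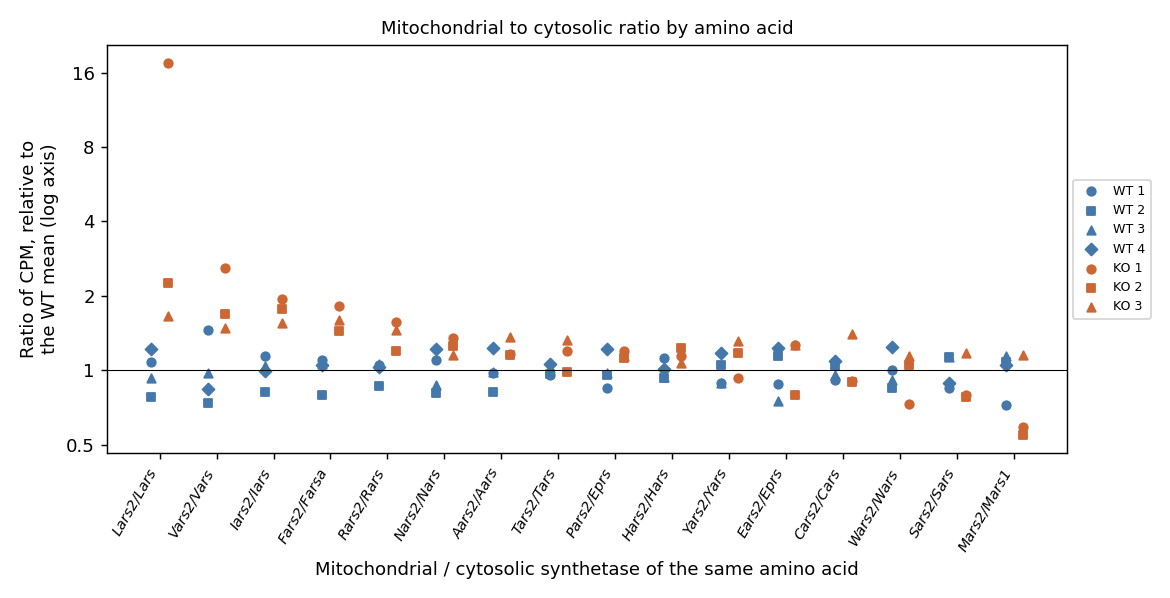
Ratio of mitochondrial to cytosolic synthetase CPM for 16 of the 17 pairings, divided by its WT mean, on a log axis with one point per library. For Lars2, Vars2, Iars2, Fars2 and Rars2 the 3 KO points lie above the 4 WT points. For Mars2, Sars2, Wars2, Cars2, Ears2, Tars2 and Yars2 some KO points lie below 1.

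Levels between genes were compared per kilobase of annotated exon in WT fat. In the cytosolic class they ran from 3.11 CPM per kb for Tarsl2 and 8.90 for Cars to 32.6 for Nars and 40.7 for Gars. In the mitochondrial class they ran from 0.718 for Mars2 and 2.08 for Pars2 to 14.8 for Lars2 and 16.8 for Iars2. The Mars2 value is uncertain, because it was divided by 11294 bases of GENCODE exon. That is longer than the whole RefSeq gene (chr1:55237177-55240058), so its place as the lowest may come from the annotation. Apart from Iars2 and Lars2, whose values carry the limits above, the mitochondrial levels were at most 12.1 CPM per kb, where Rars2 stood. In KO fat the Lars2 mean was the highest of the 38 at 87.7 CPM per kb, ahead of Gars at 55.6, and Iars2 stood at 24.4. That rank of Lars2 rests on KO 1, at 825.8 CPM against 118.2 in KO 2 and 80.5 in KO 3. Per length, Lars2 was below Gars in KO 2 and in KO 3. Annotated exons can exceed what the tissue transcribes, which lowers a level per length.

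Other genes of the mitochondrial translation pathway were read in the same fit, with TMM scaling unless another is named. In that fit 12.3% of all genes were called higher and 9.51% lower, the background for the list counts from here on. GatCAB makes mitochondrial glutaminyl-tRNA. Its subunits Gatb and Gatc had log2 differences of 0.67 (edgeR unadjusted p = 0.0116) and 0.41 (edgeR unadjusted p = 0.0115), whereas Qrsl1, its catalytic subunit, had 0.01. Mtfmt, which formylates the initiator methionine, had 0.11. Of 10 mitochondrial translation factors 8 were called higher and 0 lower, with a median of 0.44. That count was 5 without KO 1, 5 without KO 3 and 0 under total-count scaling, where the median was 0.12. Tufm, the mitochondrial elongation factor that carries charged transfer RNA to the ribosome, was at 82.9, 92.3, 86.1 and 75.5 CPM in WT and 162.4, 96.0 and 135.1 CPM in KO (log2 difference 0.64). Its WT and KO libraries did not overlap, and KO 2 was again nearest to WT. The elongation factors Gfm1 and Tsfm had 0.60 each and Gfm2, of ribosome recycling, 0.51.

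Of 11 genes that process or modify mitochondrial transfer RNA, 5 were called higher and 0 lower, with a median of 0.33; without KO 1 the count higher was 2, without WT 3 it was 3, and total-count scaling gave 1 higher, 1 lower and a median of 0.0016. The 5 were Trit1 (1.07), Trmu (0.50), Mto1 (0.49), Prorp (0.49) and Hsd17b10 (0.46), the last a part of mitochondrial RNase P with Prorp. Trnt1, which adds the CCA end in both compartments, had -0.10. Of 78 mitochondrial ribosomal protein genes 68 were called higher and 0 lower, with a median of 0.56; without KO 1 the count was 41, and under total-count scaling it was 8 with a median of 0.22. The 13 messages encoded in mitochondrial DNA were all called higher under both scalings, with a median of 1.15 with TMM, and they are the products that the mitochondrial synthetases serve. In the same libraries the synthetase class thus had a smaller median difference than its ribosome and its messages, a comparison that was not tested.

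Of 6 cytosolic elongation factors 0 were called at an unadjusted edgeR p of 0.05 (1 without KO 2), with a median of -0.12, and Eef1a1, which delivers charged transfer RNA in the cytosol, had -0.18. Among partners in proofreading, Dtd2, which removes D-amino acids and wrongly joined alanine from transfer RNA, had 0.49 (edgeR unadjusted p = 0.0303) and 3 of the 4 genes were not called. Sepsecs, which converts phosphoseryl-tRNA to selenocysteinyl-tRNA after Sars has loaded serine, had 0.44 (edgeR unadjusted p = 0.00491), while Thg1l, which adds the guanine that histidine enzymes need, had 0.11.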

How the data were processed

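The deposited file gives whole-number counts per gene, not normalized, for 7 libraries (4 WT, 3 KO) made with a stranded poly(A) kit from Trizol RNA, per the labels' protocols. Per the submitters' processing notes, bcl2fastq 2.20.0, Trimmomatic, HISAT2 2.1.0, StringTie 1.3.4d, DESeq2 and mm10 were used. How reads were counted (annotation, rule, strand) is not given in the sources used here, so counts of overlapping genes and of genes with pseudogenes, such as Kars, are uncertain. Of 29517 identifiers 29444 matched a symbol.

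In R 4.3.3, filterByExpr of edgeR 4.0.16 (minimum count 10) kept 19185 genes, which were TMM-scaled and tested without covariates by the quasi-likelihood F-test, two-sided, with Benjamini-Hochberg adjustment over all genes. DESeq2 1.42.0, limma-voom (limma 3.58.1), other scalings and filters, a replicate block and each library left out were alternatives. The edgeR script was tested on simulated data. "Called" means an unadjusted p under 0.05 unless an adjusted p is named. Replicates were described as biological, and no 2 libraries were alike within counting noise. Values per library are given for Lars2, for the 6 genes per class with the smallest p and for the 2 highest and 2 lowest per length. From the other lists, genes past an unadjusted p of 0.05 and up to 4 with the smallest p could be named, and further genes were named after their values were seen. The members and lists were chosen with earlier results of these data known. Values of 1 member on its own are not reported here, although it is in the class counts and medians.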

Additional observations from a re-analysis of the deposited data

Results flagged for a closer look

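Within the 4 WT libraries, 3 of the 38 synthetases had a library set apart from the others by Dixon's criterion. Chance flags about 1 in 20 groups, so this number is near what chance gives. Farsa stood at 35.01 CPM in WT 2, and the nearest library was at 26.59. Tars stood at 54.5 CPM in WT 2, and the nearest library was at 46.68. Iars stood at 47.53 CPM in WT 1, and the nearest library was at 51.56.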

How the results depend on the processing

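Scaling by total counts alone moved the most values. It called 1 gene at an adjusted p of 0.05 and placed 0 cytosolic genes higher and 8 lower, and 1 mitochondrial gene, Lars2, higher. The class medians were -0.24 and -0.017, Sars turned to -0.052, Cars to -0.24, Hars2 to -0.011 and Pars2 to -0.17, and the median of all genes moved from -0.04 to -0.35. The difference of class medians was 0.22 under both scalings, where a shift common to all genes cancels. Leaving out WT 1, WT 2 or WT 3 gave 0.24, 0.13 and 0.15. DESeq2 called 2120 genes after adjustment, 3 of them mitochondrial synthetases (log2 differences 2.57 for Lars2, 0.65 for Fars2 and 0.54 for Iars2), and 1 cytosolic gene lower at an unadjusted p, while limma-voom called 1 gene after adjustment. The labels do not say whether replicate numbers pair the libraries. Correlations of deviations between same-numbered libraries (0.22, -0.17 and -0.02) cannot settle it, since differently numbered libraries were not compared. With the replicate block 0 cytosolic and 4 mitochondrial genes were called higher. With WT 2 and WT 4 left out together these counts were 0 and 4. With each library left out in turn, genes called at an unadjusted p numbered 2331 to 4636, cytosolic genes higher 0 to 2 and lower 0 to 1, and mitochondrial genes higher 4 to 8. Nars then ranged from -0.069 to 0.029 and Mars2 from -0.44 to 0.025. Of the alternatives for single named genes 246 kept direction and side of the adjusted threshold, 7 reversed and 3 gained an adjusted call under DESeq2. No member passed that threshold in the main edgeR fit, so a lost unadjusted call is still among the 246. The cause of the differences between settings was not tested. The size of the Lars2 fold rests largely on KO 1.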
